A study of Mus musculus with 6 samples.

Results

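The genes described here are clock output factors in mouse gastrocnemius: Dbp, Tef, Hlf, Nfil3, Bhlhe40 and Bhlhe41, of the bZIP and Bhlhe families, and Ciart. They were matched by symbol, by a rule that sets no threshold on their values, and 7 of 7 were present among the 11815 genes of the expression table. The gastrocnemius is a calf muscle of mostly fast fibres. RNA came from 3 wild-type (WT) libraries, numbered 2, 3 and 4, and from 3 libraries of lnc-ORA knockout (KO) mice, numbered 1, 2 and 3. The strain named is C57BL/6, no treatment is named, and KO mice were 15 weeks old; the sources used here do not give the age of WT mice, the sex of either group or the hour of dissection. KO mice carry a germline CRISPR deletion of 5147 bp, made with a pair of guides, that removes the whole lnc-ORA transcript, a long non-coding RNA; how many founder lines were used is not stated. The level of lnc-ORA itself was not analysed here, so genotypes are as labelled. The study asked how loss of this RNA bears on muscle fibre types, and the contrast described here is KO against WT. The labels do not tie each library to its own animal, so p-values measure the spread between these libraries.

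As background, the circadian clock of a cell is a feedback loop in which Clock and Arntl (BMAL1) switch on genes through E-box sites, and the Per and Cry proteins then shut Clock and Arntl down. Output factors carry this rhythm to other genes. Dbp, Tef and Hlf are PAR bZIP activators that bind D-box sites, and Nfil3 (E4BP4) is a bZIP repressor that competes for the same sites. Bhlhe40 (DEC1) and Bhlhe41 (DEC2) are basic helix-loop-helix repressors that compete at E-boxes, and Ciart (CHRONO) is a repressor that binds Arntl. In skeletal muscle these genes are known to cycle over the day, Dbp with one of the widest swings.

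Promoter windows of 250 bases before to 50 after a transcript start were read from RefSeq (GRCm38.p6) for 6 of the 7 genes, all but Bhlhe40, in 7 windows because Tef has a pair of starts. The windows were searched on both strands for the E-box CACGTG, which reads the same on either strand, and for the D-box written as TTATGTAA or TTACGTAA. An E-box was found in 4 of the 7 windows, those of Ciart, Bhlhe41 and both Tef starts, against 7.15% of all 32851 windows of this length. Ciart held 3 of them, which begin 116, 58 and 44 bases before the start, and 29 of the 32851 windows (0.0883%) held 3 or more. Windows of Dbp, Hlf and Nfil3 held no CACGTG, and none of the 7 held either D-box, which 1.06% of all windows hold. The ROR core NNAGGTCA, which does not overlap these motifs, was found in the Nfil3 window, against 16.2% of all windows. A match is a string of letters, not a measured binding site. The sequences below are examples. Ciart and Dbp, like Hlf and Nfil3, had every KO library above every WT library, while Bhlhe41 and Tef had groups that overlap. Whether an E-box goes with the change in KO was not tested, and sites outside these windows were not searched. Each sequence runs 5′ to 3′ on the strand of the gene, with E-boxes in capitals.
Ciart, chr3:95882179-95882478, minus strand: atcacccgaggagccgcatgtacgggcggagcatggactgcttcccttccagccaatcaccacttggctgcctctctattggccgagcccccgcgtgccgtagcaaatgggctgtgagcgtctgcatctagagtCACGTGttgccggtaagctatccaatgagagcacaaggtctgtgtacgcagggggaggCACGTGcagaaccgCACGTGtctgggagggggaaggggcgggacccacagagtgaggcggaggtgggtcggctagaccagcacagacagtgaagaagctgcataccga
Dbp, chr7:45704997-45705296, plus strand: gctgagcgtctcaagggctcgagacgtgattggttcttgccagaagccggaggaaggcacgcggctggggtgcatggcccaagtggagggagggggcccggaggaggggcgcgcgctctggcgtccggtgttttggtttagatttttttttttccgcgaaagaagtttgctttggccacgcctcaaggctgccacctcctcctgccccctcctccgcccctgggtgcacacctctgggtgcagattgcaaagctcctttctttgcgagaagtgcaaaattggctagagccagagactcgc
Bhlhe41, chr6:145865371-145865670, minus strand: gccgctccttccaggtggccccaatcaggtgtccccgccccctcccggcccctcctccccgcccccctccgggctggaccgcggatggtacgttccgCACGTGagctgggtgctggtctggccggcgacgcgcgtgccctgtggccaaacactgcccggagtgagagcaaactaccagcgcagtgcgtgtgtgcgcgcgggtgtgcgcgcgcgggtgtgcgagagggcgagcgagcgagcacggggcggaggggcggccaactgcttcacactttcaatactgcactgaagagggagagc
Tef, downstream start, chr15:81811164-81811463, plus strand: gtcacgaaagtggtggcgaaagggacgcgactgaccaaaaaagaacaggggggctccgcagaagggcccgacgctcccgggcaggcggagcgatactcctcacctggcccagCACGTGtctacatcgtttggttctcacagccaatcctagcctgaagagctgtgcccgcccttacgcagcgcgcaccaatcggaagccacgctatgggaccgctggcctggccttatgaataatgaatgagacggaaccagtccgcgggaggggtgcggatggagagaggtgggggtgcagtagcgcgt

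Values are RPKM, reads per kilobase of gene scaled to the counted reads of the library, and the libraries held 54370181 to 69693905 counted reads. Changes were tested with limma on log2(RPKM + 1) over the 7574 genes that reached 1 RPKM in at least 3 libraries, with a Benjamini-Hochberg adjusted p of 0.05 as the threshold. Log2 fold changes below are on that scale, where the pseudocount shrinks differences of weakly expressed genes. Of the 7 genes 6 were tested, since Hlf stayed under 1 RPKM in every library. Ciart passed the filter on 4 libraries, the 3 of KO and 1 of WT, so its entry into the test leaned on the group where it is high. Of these 6, Ciart rose and Bhlhe40 fell, while Dbp and Nfil3 lay just short of the threshold and Tef and Bhlhe41 did not pass. Over all tested genes 17.3% were called, 3.83% as higher and 13.5% as lower, and 6 genes are too few to read a share from. The groups did not overlap for 5 of the 7 genes, with KO above WT for Dbp, Hlf, Nfil3 and Ciart and below it for Bhlhe40. Over the 11815 genes, 38.2% had groups that did not overlap, 8.29% with KO above and 29.9% with KO below.

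Bulk tissue was measured, so fewer cells of a type and less RNA per cell cannot be told apart. Skeletal muscle markers were high in every library: the 10 listed, some of them common to all fibre types, summed to 62880 to 71440 RPKM in WT and to 67020 to 72580 in KO, and 0 of 10 tested passed in limma, with 0 at an unadjusted p under 0.05 and 0 in limma-voom. Schwann cell markers moved with genotype. All 4 tested fell, among them Pmp22, Prx and Mbp; the 6 of 8 listed that were in the table summed to 31.2 to 49.7 RPKM in WT and 7.14 to 9.86 in KO, and the part of these cells in the clock gene values was not tested. Cldn5, the 1 of 9 tested endothelial markers called lower, reached 1 RPKM in the 3 WT libraries only, as did Prx and Mbp, so these entered the test through the group where they are high. The 10 endothelial markers summed to 27.0 to 41.3 RPKM in WT and 23.3 to 24.9 in KO. Adipocyte markers had 1 of 1 tested lower (Fabp4), with 2 of 8 listed in the table at 27.2 to 34.6 RPKM in WT and 19.4 to 22.8 in KO. Nearly all of the adipocyte sum was Fabp4, with means of 31.4 RPKM in WT and 20.9 in KO. Pparg, below the filter, was at 0.353 and 0.338, with groups that overlap. Of 6 tested markers of fibro-adipogenic progenitors 2 rose (Col3a1 and Smoc2), and the 9 summed to 20.7 to 35.8 RPKM in WT and 31.1 to 39.3 in KO. Satellite cell markers had 1 of 2 tested higher (Sdc4, which other cells also express), with 4 of 6 listed in the table at 13.8 to 18.6 RPKM in WT and 26.4 to 28.2 in KO. Most of that sum was Sdc4, with means of 13.2 RPKM in WT and 24.9 in KO. Pax7 (0.181 and 0.0910) and Myod1 (0.746 and 0.531), both below the filter, had every KO library below every WT library, and Cd82 overlapped. Immune markers were few: 4 of 10 macrophage genes were in the table, with the 1 tested (Lyz2) not passing and sums of 3.50 to 7.76 RPKM in WT and 4.54 to 7.75 in KO, and 1 of 10 lymphocyte genes (Ptprc) at 0.0763 to 0.151 and 0.0974 to 0.142. The part of these other cells was not tested either.

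**Figure D1:**
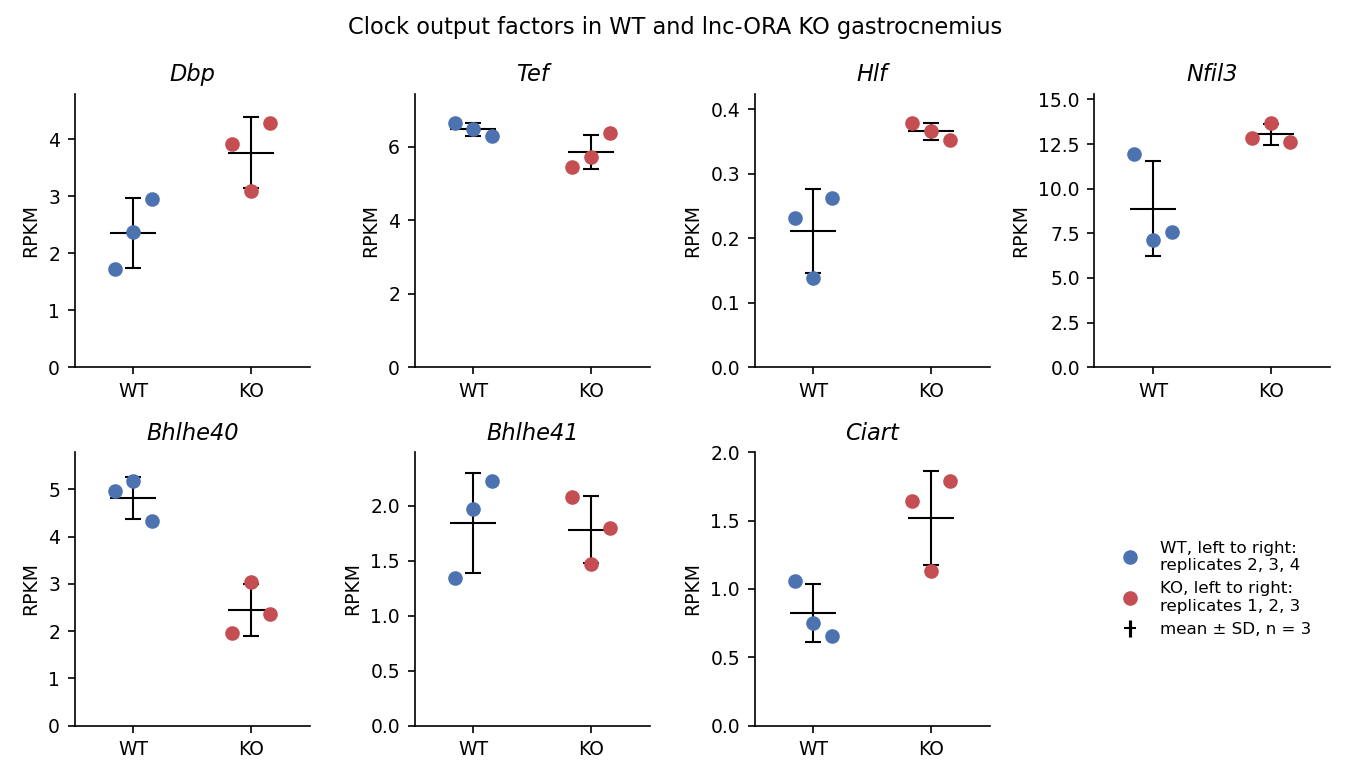
RPKM of each clock output factor in the 3 WT (blue) and 3 KO (red) libraries, with each vertical axis starting at 0 and its own scale; the bar is the mean and the whiskers 1 SD. Dbp, Hlf, Nfil3 and Ciart have all KO points above all WT points, Bhlhe40 has them all below, and Tef and Bhlhe41 overlap.

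Among the PAR bZIP activators, Dbp, the founding D-site binding protein, stood at 1.73, 2.37 and 2.95 RPKM in WT replicates 2, 3 and 4 and at 3.92, 3.08 and 4.28 in KO replicates 1, 2 and 3. The lowest KO library lay just above the highest WT library. Means were 2.35 ± 0.613 and 3.76 ± 0.616 RPKM (SD, n = 3 each), 1.60 times as much in KO, and the log2 fold change of 0.52 (SE 0.15, 95% interval 0.17 to 0.86) had an adjusted p of 0.0507 and did not pass. This value sits at the edge of the threshold. Dbp passed under 6 of 12 alternatives, among them library medians made equal (adjusted p = 0.0426), limma-voom on whole reads (0.0457) and leaving out WT replicate 4 (0.0216), and reached 0.171 without KO replicate 3. Its 360 to 806 reads per library give a counting error of 4.76% in WT and 3.78% in KO, against coefficients of variation between libraries of 26.1% and 16.4%, so the spread between libraries was the larger error.

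Hlf, the activator named for hepatic leukaemia factor, was by far the scarcest of the 7. It read 0.232, 0.138 and 0.263 RPKM in WT replicates 2, 3 and 4 and 0.379, 0.366 and 0.353 in KO replicates 1, 2 and 3. The KO libraries lay close together and above all WT libraries. Means were 0.211 ± 0.0652 and 0.366 ± 0.0132 RPKM, a ratio of 1.74, from 50 to 115 reads in WT and 136 to 174 in KO. Hlf was not tested at the filter used; with no filter on low values it was called (log2 fold change 0.18, SE 0.05, adjusted p = 0.0357). Counting error of 8.13% in KO exceeds the 3.62% between the KO libraries, so 3 libraries this close do not show a smaller true spread.

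Tef, thyrotroph embryonic factor, was the most abundant of the activators. WT replicates 2, 3 and 4 read 6.66, 6.48 and 6.30 RPKM and KO replicates 1, 2 and 3 read 5.46, 5.73 and 6.37. KO replicate 3 fell inside the WT range, so the groups overlap. The log2 fold change was -0.13 (SE 0.08, adjusted p = 0.307), with a 95% interval of -0.32 to 0.06. That interval holds no rise of the size seen in Dbp, and the sign turned to 0.001 with totals that leave out the 10 most abundant genes. The related activators therefore gave unlike values: per library the Tef to Dbp ratio of RPKM was 3.86, 2.74 and 2.13 in WT replicates 2, 3 and 4 and 1.39, 1.86 and 1.49 in KO replicates 1, 2 and 3, with the groups apart.

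Nfil3, the repressor at the same D-box sites, had the highest level of the 7 in both groups. It read 11.9, 7.12 and 7.60 RPKM in WT replicates 2, 3 and 4 and 12.8, 13.7 and 12.6 in KO replicates 1, 2 and 3. WT replicate 2 lay near the KO libraries and apart from the other WT libraries. Means were 8.88 ± 2.64 and 13.0 ± 0.568 RPKM, a ratio of 1.47, and the log2 fold change of 0.54 (SE 0.17, 95% interval 0.16 to 0.92) missed the threshold with an adjusted p of 0.0597. Without WT replicate 2 it was 0.75 and passed (adjusted p = 0.00286); without WT replicate 3 it was 0.41 (adjusted p = 0.174). Nfil3 also passed with library medians made equal (0.66, adjusted p = 0.0137) and with totals that leave out the 10 most abundant genes (0.68, adjusted p = 0.0177).

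Dbp and Hlf, activators at the D-box, and the repressor Nfil3 had higher means in KO, and neither Dbp to Nfil3 nor Hlf to Nfil3 separated the groups. The Dbp to Nfil3 ratio of RPKM was 0.145, 0.332 and 0.388 in WT replicates 2, 3 and 4 and 0.305, 0.225 and 0.340 in KO replicates 1, 2 and 3. Means of this ratio were 0.289 ± 0.128 in WT and 0.290 ± 0.0588 in KO. For Hlf to Nfil3 the ratio was likewise overlapping, at 0.0245 ± 0.00875 and 0.0281 ± 0.00140. Tef to Nfil3 did separate them, at 0.766 ± 0.184 in WT and 0.450 ± 0.0482 in KO, with no KO library reaching the lowest WT library of 0.558. These ratios are descriptions chosen after the values were seen.

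The E-box repressor Bhlhe40 was the member called lower. It read 4.97, 5.17 and 4.32 RPKM in WT replicates 2, 3 and 4 and 1.96, 3.04 and 2.35 in KO replicates 1, 2 and 3. Each KO library lay well below each WT library. Bhlhe40 fell by 0.76 on the log2 scale (SE 0.12, 95% interval -1.05 to -0.48, adjusted p = 0.00721), to 0.509 times its WT mean. The call held under 12 of 12 alternatives, with log2 fold changes of -0.9987 to -0.65 and adjusted p of up to 0.0389. Reads per library ran from 634 to 1629, with counting errors of 2.65% in WT and 3.77% in KO.

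Bhlhe41, the close relative of Bhlhe40, did not follow it. Its levels were 1.34, 1.97 and 2.22 RPKM in WT replicates 2, 3 and 4 and 2.07, 1.47 and 1.801 in KO replicates 1, 2 and 3, and the KO range lies inside the WT range. The log2 fold change was -0.02 (SE 0.13, adjusted p = 0.917) and its 95% interval of -0.33 to 0.28 does not reach the interval of Bhlhe40; the difference between these 2 genes was not itself tested. Its sign turned positive with library medians made equal (0.05), with totals that leave out the 10 most abundant genes (0.07) and in 3 of 6 fits with 1 library left out. As a ratio of RPKM, Bhlhe40 to Bhlhe41 was 3.71, 2.62 and 1.95 in WT replicates 2, 3 and 4 and 0.945, 2.07 and 1.31 in KO replicates 1, 2 and 3, with KO replicate 2 inside the WT range.

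Ciart, the Arntl-binding repressor, rose. It read 1.06, 0.748 and 0.655 RPKM in WT replicates 2, 3 and 4 and 1.64, 1.13 and 1.79 in KO replicates 1, 2 and 3. KO replicate 2 was only just above WT replicate 2. Means were 0.821 ± 0.212 and 1.52 ± 0.345 RPKM, a ratio of 1.85, with a log2 fold change of 0.47 (SE 0.12, 95% interval 0.19 to 0.74, adjusted p = 0.0357). The call ended without KO replicate 1 (adjusted p = 0.118), KO replicate 3 (0.127), WT replicate 3 (0.111) or WT replicate 4 (0.0748). Between 92 and 255 reads per library lie behind these values, with counting errors of 9.18% in WT and 6.83% in KO. On the scale of limma-voom, which adds no RPKM pseudocount, the log2 fold change was 0.89 (adjusted p = 0.0359).

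**Figure D2:**
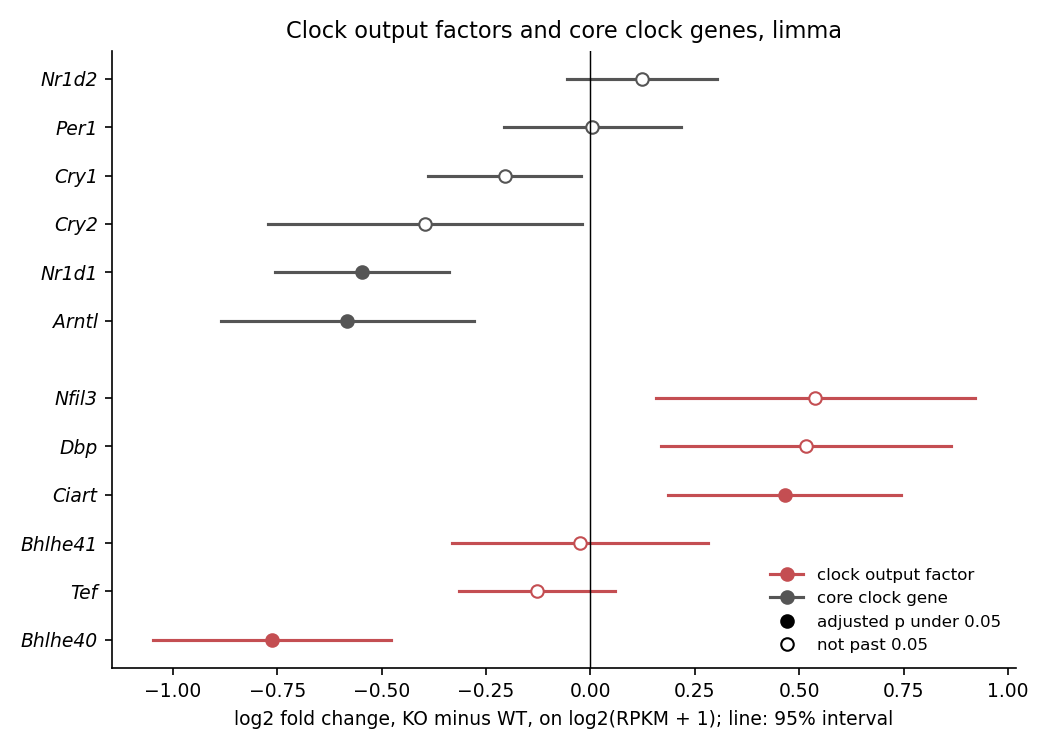
Log2 fold change, KO minus WT, with its 95% interval for the 6 tested clock output factors (red) and 6 core clock genes (grey); filled points passed an adjusted p of 0.05. Bhlhe40 at -0.76 and Ciart at 0.47 are the filled output factors, and the filled core clock genes are Arntl at -0.58 and Nr1d1 at -0.55.

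By level, the order in WT was Nfil3, Tef, Bhlhe40, Dbp, Bhlhe41, Ciart and Hlf, from 8.88 to 0.211 RPKM. Dbp and Bhlhe41 were the neighbours whose WT ranges overlapped. In KO the order was Nfil3, Tef, Dbp, Bhlhe40, Bhlhe41, Ciart and Hlf, with Dbp (3.08 RPKM at its lowest) above Bhlhe40 (3.04 at its highest). Bhlhe40 and Bhlhe41 overlapped there, as did Bhlhe41 and Ciart.

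The core clock was read from a list of 23 genes, of which 20 were in the table and 16 were tested. In limma 0 rose and 5 fell, with 0 higher and 9 lower at an unadjusted p under 0.05 and 0 higher and 5 lower in limma-voom. Over all tested genes 13.5% were called lower and 3.83% higher. The core clock median log2 fold change was -0.23, against -0.09 over all tested genes. Arntl, the E-box activator's BMAL1 subunit, went from 2.90, 1.93 and 1.75 RPKM in WT replicates 2, 3 and 4 to 1.27, 1.09 and 0.972 in KO replicates 1, 2 and 3 (log2 fold change -0.58, SE 0.13, adjusted p = 0.022). Its partner Clock was at 0.976 ± 0.132 in WT and 0.648 ± 0.0333 in KO, below the filter and called with no filter (adjusted p = 0.0329). Without WT replicate 3, KO replicate 1, KO replicate 2 or KO replicate 3, Arntl was no longer called, with an adjusted p as high as 0.0926.

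On the side of the repressors, Per2 levels ran opposite to those of Arntl. Per2 was at 0.270, 0.320 and 0.414 RPKM in WT replicates 2, 3 and 4 and 1.03, 0.961 and 0.913 in KO replicates 1, 2 and 3, a ratio of 2.89 that was called with no filter (adjusted p = 0.00171). Per1 stood at 3.29 RPKM in both groups (log2 fold change 0.005, adjusted p = 0.98), and Per3 at 0.458 ± 0.134 and 0.360 ± 0.0642 did not pass with no filter (adjusted p = 0.377). Cry1 (-0.21, adjusted p = 0.112) and Cry2 (-0.40, adjusted p = 0.13) did not pass. In the nuclear receptor arm, which sets Arntl and Nfil3 levels through ROR elements, the repressor Nr1d1 fell from 9.27 ± 0.833 to 6.02 ± 0.389 RPKM (log2 fold change -0.55, adjusted p = 0.00764), and its relative Nr1d2 did not pass (0.12, adjusted p = 0.301). Csnk1e, a kinase that marks Per proteins, also fell, at -0.70 (adjusted p = 0.00481).

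Set beside Arntl in the same library, Ciart gave a ratio of RPKM of 0.366, 0.387 and 0.374 in WT replicates 2, 3 and 4 and 1.29, 1.04 and 1.84 in KO replicates 1, 2 and 3. The WT ratios were at 0.376 ± 0.0106, and both genes were highest in WT replicate 2. The counting error of Ciart alone was 9.18% in WT, more than this spread, so 3 ratios this close do not show a smaller true spread. For Dbp to Arntl the ratio was 1.17 ± 0.547 in WT and 3.44 ± 0.850 in KO, again with the groups apart. The plot of clock genes by library shows which of them shared the direction of Ciart. KO libraries lay below all WT libraries for Bhlhe40, Arntl, Clock, Cry1 and Nr1d1. They lay above for Ciart, Dbp, Hlf, Nfil3, Per2 and Nr1d2. Over the 11815 genes, 29.9% had KO below and 8.29% KO above, and this grouping restates direction only. The ratios to Arntl, too, were chosen after the values were seen.

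**Figure D3:**
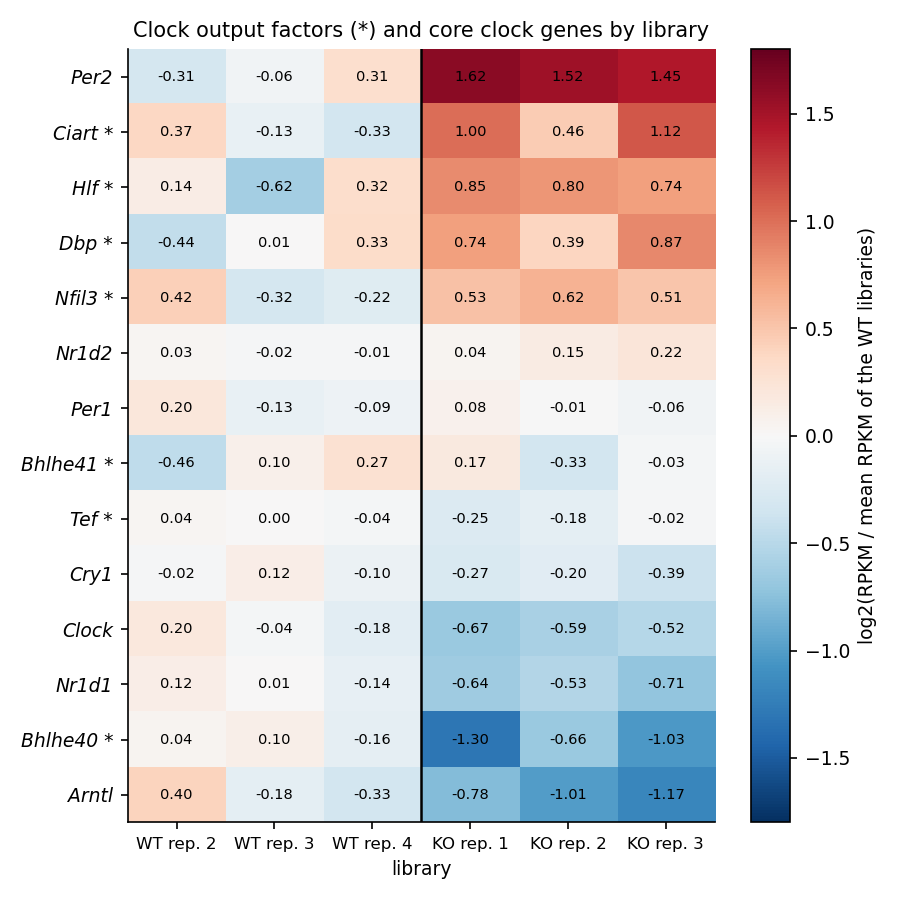
Log2 of RPKM over the WT mean in each library for the 7 clock output factors (starred) and 7 core clock genes, red for higher and blue for lower, with the 3 WT libraries left of the line. The KO columns run from red for Per2, Ciart, Hlf, Dbp and Nfil3 to blue for Nr1d1, Bhlhe40 and Arntl, while Per1, Bhlhe41 and Tef stay pale.

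A list of 23 genes under clock control had 21 members in the table and 17 tested, of which 4 rose and 3 fell, with a median log2 fold change of -0.10; the shares over all tested genes were 3.83% and 13.5%. The kinase gene Sgk1 rose (0.66, adjusted p = 0.0209), as did the leucine zipper gene Tsc22d3 (0.41, adjusted p = 0.0318) and the uncoupling protein Ucp3 (0.77, adjusted p = 0.0184). The glycolytic regulator Pfkfb3 (-2.49, adjusted p = 0.00104) and the ubiquitin ligase Fbxo32 (-1.93, adjusted p = 0.0055) fell furthest. The cell cycle inhibitor Cdkn1a fell by 0.76 on the log2 scale (adjusted p = 0.0423). The other gene that rose was Usp2, a ubiquitin protease with a strong daily rhythm in many tissues, at 3.28, 3.42 and 3.35 RPKM in WT replicates 2, 3 and 4 and 4.51, 4.26 and 4.60 in KO replicates 1, 2 and 3 (log2 fold change 0.33, adjusted p = 0.021); it was named after its values were seen. Por, a reductase gene that PAR bZIP factors are known to activate in liver, was lower without passing (-0.45, adjusted p = 0.0598), and Alas1, another such target, was at 0.10 (adjusted p = 0.388). Calls ended without KO replicate 1 or 3 for Sgk1, Tsc22d3, Ucp3, Cdkn1a and Usp2, without WT replicate 3 for these except Ucp3, and without KO replicate 2 for Cdkn1a and Usp2 (adjusted p of up to 0.124).

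Other bZIP factors were read from a further list. Of 21 listed C/EBP, CREB, ATF and related genes 18 were in the table and 15 were tested, of which in limma 0 rose and 1 fell, the stress sensor Atf6 (-0.28, adjusted p = 0.0484), with a median of -0.12. At an unadjusted p under 0.05 there were 1 higher and 4 lower, and limma-voom called 0 higher and 1 lower, beside 13.5% of all tested genes called lower by limma. Atf6 was called under 3 of 12 alternatives. Cebpb, a C/EBP factor of inflammation and adipocyte formation, was at 8.07 ± 2.95 and 8.13 ± 1.05 RPKM (log2 fold change 0.06, adjusted p = 0.882), and Cebpd at 5.36 ± 1.198 and 3.75 ± 1.49 (-0.46, adjusted p = 0.225). Among Hes, Hey and Id genes and the Tle corepressors, bHLH repressors and their partners, 10 of 14 were in the table and only Hes1 was tested (-0.22, adjusted p = 0.134), with an unadjusted p under 0.05 in limma and no call in limma-voom.

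Likeness of pattern was measured as the root mean square distance between log2(RPKM + 1) profiles over the 6 libraries, each centred on its own mean, for the 3 members with the widest range. Nearest to Bhlhe40 were A930018M24Rik at 0.028, Nrbf2 at 0.090 and Eif3j1 at 0.10. Nearest to Dbp were 2310040G24Rik at 0.063, Pgam2 at 0.069 and Gm15756 at 0.082, and to Nfil3 Tgm2 at 0.059, Tinagl1 at 0.093 and Optn at 0.096. Members were not among these names: Ciart came 144th of the genes around Nfil3 and 530th around Dbp. The points are 6 libraries that fall into the same groups for every gene, so these names are a description.

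Some reads could belong to neighbours, because no source used here gives the strand setting of the counting. In GENCODE M21 the exons of Dbp share 539 bases of 2993 with Sphk2 on the opposite strand, and those of Bhlhe41 share 1280 of 6720 with Gm43909. Sphk2 had 1.39 ± 0.199 RPKM in the WT and 1.69 ± 0.274 in the KO libraries (log2 fold change 0.17, adjusted p = 0.272), a smaller difference than that of Dbp. Gm43909 was at 2.02 ± 0.280 and 1.71 ± 0.181 (-0.15, adjusted p = 0.283). Bhlhe40 shares 118 bases of 4705 with 0610040F04Rik, a gene below the filter at 0.624 ± 0.147 RPKM in WT and 0.351 ± 0.143 in KO, with groups that overlap, and Tef shares 193 bases with Gm17597. Of the 50-base stretches of Ciart transcripts 11.9% also occur in Gm9176, so a part of its reads is uncertain.

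The authors' deposited table gives its own log2 fold changes, and for these genes they differ from the ratios of the RPKM columns beside them. In the authors' deposited table Ciart was at 1.22 with an FDR of 0.0336, the only one of the 7 under 0.05, in a table where 191 genes (1.62%) were. Dbp was at 0.92 (FDR 0.0603), Hlf at 0.73 (0.0843) and Bhlhe40 at -0.60 (0.0912) in the authors' deposited table. Log2 ratios of mean RPKM were 0.89 for Ciart, 0.68 for Dbp, 0.80 for Hlf and -0.97 for Bhlhe40. Over all genes the deposited value exceeded the ratio by a median of 0.14 (quartiles 0.08 and 0.21). Nfil3 went the other way, at 0.36 (FDR 0.406) in the authors' deposited table against a ratio of 0.55, while Bhlhe40 was shifted upward by 0.37. For Tef (0.06) and Bhlhe41 (0.12) the authors' deposited table has the opposite sign to the RPKM ratios of -0.15 and -0.05.

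**Figure D4:**
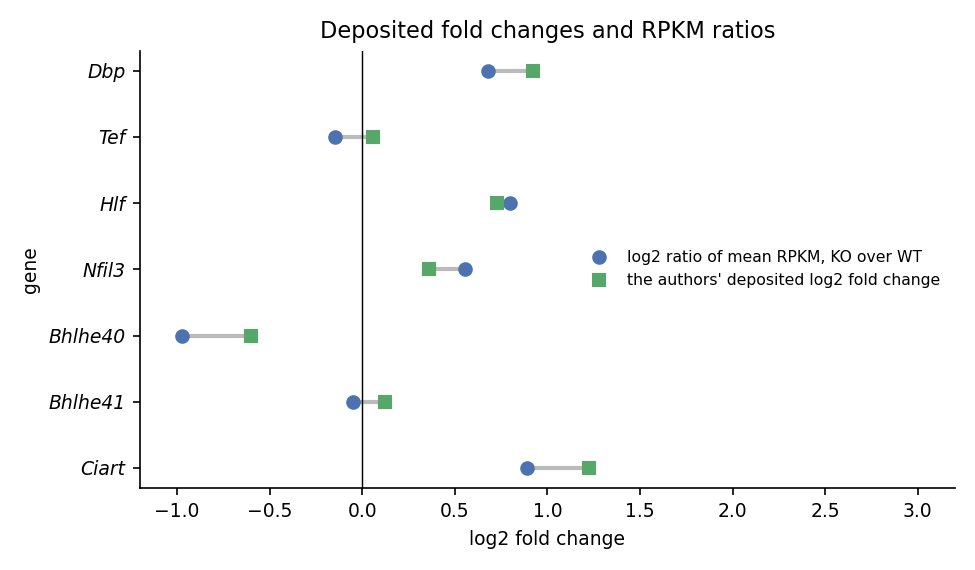
Log2 ratio of mean RPKM, KO over WT (blue circles), and the log2 fold change in the authors' deposited table (green squares) for the 7 genes. The squares lie right of the circles for Dbp, Tef, Bhlhe40, Bhlhe41 and Ciart and left of them for Hlf and Nfil3, and both lie on 1 side of 0 except for Tef and Bhlhe41.

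Scaling moved the whole table. In the limma fit described above, on the RPKM values without rescaling, the median log2 fold change of all tested genes was -0.09. It was 0.01 with library medians made equal and 0.02 with totals that leave out the 10 most abundant genes, the latter a shift of 0.11. Calls in limma split into 290 higher and 1021 lower without rescaling, 595 and 689 with equal medians, and 683 and 600 with those totals. Under the other scalings Bhlhe40 was still called lower (-0.67 and -0.65) and Ciart higher (0.54 and 0.55), and both Dbp (0.61 and 0.63) and Nfil3 (0.66 and 0.68) passed.

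**Figure D5:**
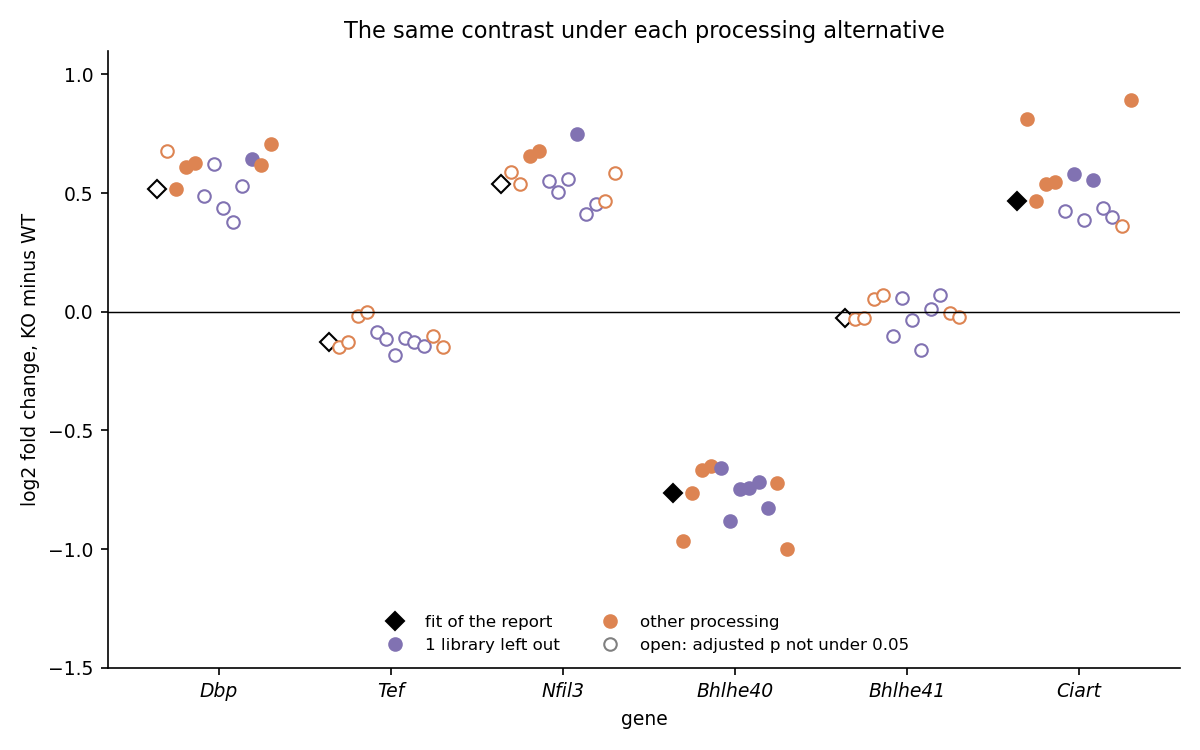
Log2 fold change of the 6 tested genes in the fit described above (black diamonds), with 1 library left out (purple) and under other processing (orange); open points did not pass an adjusted p of 0.05. Points of Bhlhe40 are all filled and below -0.6, those of Dbp, Nfil3 and Ciart lie above 0.3 with filled and open points, and those of Tef and Bhlhe41 are open and near 0.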

How the data were processed

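RNA was sequenced from gastrocnemius in 3 WT and 3 KO libraries after mRNA fragmentation and random hexamer priming, per the labels' protocols. GRCm39 is the build in the submitters' processing notes; no source used here gives the aligner, counting program, annotation or strand setting. The authors deposited RPKM per gene and library, a unit inferred from the values since the header names none. Log2 fold change and log2 CPM, an F score, and p-value and FDR columns are the authors' own, per the file headers, and no source used here names their test.

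RPKM times gene length and library total gave whole reads (within 0.02) in all libraries for 11814 of 11815 genes. Lengths came from GENCODE M21 (GRCm38), which gave whole reads for 9226 of 11481 genes, and otherwise were chosen so that the values came out whole. limma-trend (limma 3.58.1, R 4.3.3) was fitted to log2(RPKM + 1) with genotype as the only term; adjusted p are from this fit unless another is named. On simulated data for this comparison, with 200 of 7574 genes changed, recovery was 77.6% at 1.5-fold, 88.1% at 2-fold and 98.5% at 4-fold, and 3.3% of calls were false. The simulated noise was independent between genes, without library-wide shifts, and changes were split evenly between up and down. These rates therefore need not hold for the real libraries. Promoters were RefSeq sequences of GRCm38.p6. Python 3.11.15, pandas 2.3.3, numpy 2.4.6, scipy 1.17.1 and matplotlib 3.10.9 did the rest.

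The genes described and the gene lists were chosen with earlier results of these data known. Beyond the 7 genes, the text names a fixed set of core clock genes, Cebpb and Cebpd, up to 6 called genes of each list by size of change, and the 3 nearest profiles of 3 members; Usp2, Por, Alas1, Per2 and Arntl ratios, marker genes and genes that overlap members were named after their values were seen. Some genes counted in the lists are not reported here by name. Alternatives were another pseudocount, no filter, equal library medians, totals without the 10 most abundant genes, each library left out, replicate number as a block, limma-voom on whole reads, and an exact permutation test of single genes.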

Additional observations from a re-analysis of the deposited data

How the results depend on the processing

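Counting all tested genes, 1311 were called, and leaving out 1 library gave 438 to 1479. Of the 7 genes 2 were called, and 4 with no filter on low values, 4 with library medians made equal, 4 with totals that leave out the 10 most abundant genes, and 1 to 3 with 1 library left out. Dbp passed with no filter (0.52), equal medians (0.61), those totals (0.63), limma-voom (0.71) and at 0.38 to 0.64 with 1 library left out, passing in 1 of 6. Nfil3 passed with equal medians (0.66) and those totals (0.68), and with 1 library left out ranged from 0.41 to 0.75, passing in 1 of 6. Hlf passed with no filter (0.18). Ciart ranged from 0.39 to 0.58 with 1 library left out, passing in 2 of 6. With 1 library left out, 3 to 8 core clock genes, 2 to 9 clock-controlled genes and 0 to 2 bZIP genes were called; with no filter the bZIP list had 0 and the Hes, Hey and Id list 1. Dropping a library leaves fewer samples; the cause of the other changes was not tested.

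Libraries 2 and 3 of each genotype share replicate numbers without a stated pairing. With replicate number as a block, WT replicate 4 and KO replicate 1 have no counterpart and add nothing to the genotype difference. The block values below therefore rest on numbers 2 and 3 only. Deviations from the group means correlated at 0.479 for number 2 and 0.27 for number 3. WT replicate 4 and KO replicate 1, which share no number, correlated at 0.431, so the numbers do not set the pairs apart. With the replicate block Dbp passed (0.62, adjusted p = 0.0094) and Ciart did not (0.36, adjusted p = 0.148); nor did Usp2 (0.32, adjusted p = 0.0565), Tsc22d3 (0.36, adjusted p = 0.0885) or Atf6 (-0.26, adjusted p = 0.0945). An exact two-sided permutation test of single genes cannot go below p = 0.1 with 3 against 3, which Bhlhe40 (-0.76) and Ciart (0.47) reached, as did Dbp, Hlf and Nfil3. Tef and Bhlhe41 gave exact p of 0.2 and 0.9. Depth limits Hlf and Ciart most, with as few as 50 and 92 reads in a library.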
